A study of Bos taurus with 10 samples.

Results

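The DNA replication genes described here are 46 genes of origin licensing, helicase assembly, DNA synthesis and deoxynucleotide supply, chosen by gene symbol from a fixed list. That list was drawn up with earlier results of these data known. Shares of members set beside those of all genes are therefore description only. All 46 were found, of 28700 gene symbols that each stood on 1 line of the deposited expression table. All 46 had a mean of at least 1 FPKM (fragments per kilobase of transcript, scaled to the mapped fragments of the library, a level per length) over the 10 libraries and were tested among 11761 genes. The members were ordered by role: origin recognition (6 genes), helicase loading (3), the MCM2 to MCM7 helicase (6), helicase activation and coupling (7), primase and polymerase alpha (4), polymerases delta and epsilon (5), the sliding clamp and its loader (6), single-strand binding (3), flap removal, ligation and unlinking (3), and nucleotide supply (3).

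The libraries were made from poly(A) RNA of bovine (Bos taurus) embryos. Zygotes received either negative control siRNAs (NC) or siRNAs against H1FOO (KD), which encodes the linker histone of the oocyte and early embryo. Embryos were taken at the 8/16-cell stage, 4 days post insemination (2 NC and 2 KD libraries), and as morulae, 5.5 days post insemination (3 NC and 3 KD libraries). Every embryo was thus injected as a zygote, and no uninjected group was analysed here. The labels give neither the number of embryos per library nor whether libraries came from separate collections, so p-values measure the spread between these libraries, which may be technical.

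Replication is prepared in G1, when the origin recognition complex, CDC6 and CDT1 load MCM2 to MCM7 onto DNA as an inactive ring. In S phase CDC45 and GINS turn that ring into a moving helicase, and primase with polymerase alpha, then polymerases delta and epsilon with PCNA, copy the strands. Early cleavage cycles run largely on RNA and protein stored in the oocyte. In cattle the main wave of embryonic transcription comes around the 8/16-cell stage, so that replication factors come increasingly from the embryo's own genes afterwards.

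The labels were checked on H1FOO. Among 8/16-cell libraries, H1FOO had 50.9 and 10.8 FPKM in NC, against 0.649 and 0.0736 in KD. In morulae it stood at 0.294, 1.05 and 2.17 FPKM in NC and at 0.0610, 0.191 and 0.251 in KD, so the KD libraries were lower at both stages without overlap. The embryo marker POU5F1 was at 97.4 to 673 FPKM in the 10 libraries. In bulk libraries fewer cells of a type and less RNA per cell cannot be told apart. Summed FPKM per library lay between 345464.4 and 669835.6. The number of reads is not given in the table.

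The members spanned a wide range of levels. Averaged over the 10 libraries, the lowest were ORC2 (1.98 FPKM), GINS4 (2.92), PRIM1 (3.51) and POLA1 (3.52), and the highest were RRM2 (83.0), PCNA (74.4), MCM7 (73.6) and LIG1 (68.9). Levels thus differed between partners of a single complex: GINS4 and GINS1 (40.9) belong to GINS, and ORC2 and ORC1 (36.5) to the origin recognition complex.

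In KD morulae most replication genes stood below their NC level, but none passed the test of the design on its own. Among the 46 members, 37 had a KD minus NC log2 difference below 0, or 80.4%, against 57.9% of all genes tested. Because the members were chosen with earlier results of these data known, such contrasts with all genes are not independent support. The median difference of the members was -0.26, against -0.08 for all genes, and the range ran from -1.03 (GINS2) to 0.48 (GINS4). The test was limma on log2(FPKM + 1) with 1 mean for each of the 4 groups, adjusted over all 11761 genes. With it 0 of 46 members passed at an adjusted p under 0.05, while 0.697% of all genes did. The lowest limma adjusted p of a member was 0.0724, for RRM1. At an unadjusted p under 0.05, 12 members were lower (26.1%, against 13.9% of all genes) and 1 was higher (2.17%, against 7.30%).

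Morula libraries that carry the same replicate number deviated together from their group means, with correlations across genes of 0.37, 0.325 and 0.312 for numbers 1, 2 and 3. With the replicate number as a block in the same limma fit, 9 of 46 members passed, all of them lower in KD (19.6%, against 8.00% of all genes lower and 11.9% in either direction). They were ORC6, MCM5, MCM6, GINS1, GINS2, POLA1, PRIM1, RRM1 and RRM2. That block was applied within both stages, and with it in morulae alone the same 9 passed (6.91% of all genes lower). This call rests on all 3 numbers: with the block, 0 members passed without number 1, 2 (MCM7 and GINS2) without number 2, and 0 without number 3. Leaving out a number also leaves fewer residual degrees of freedom. The shares of all genes in these fits are not given here, so the loss is not shown to be particular to the members. Within the numbered pairs, KD stood below NC in all 3 pairs for 23 members, in 2 pairs for 14, in 1 pair for 7 and in none for 2 (GINS4 and FEN1). Of all genes tested, 32.0% stood below in all 3 pairs.

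**Figure D1:**
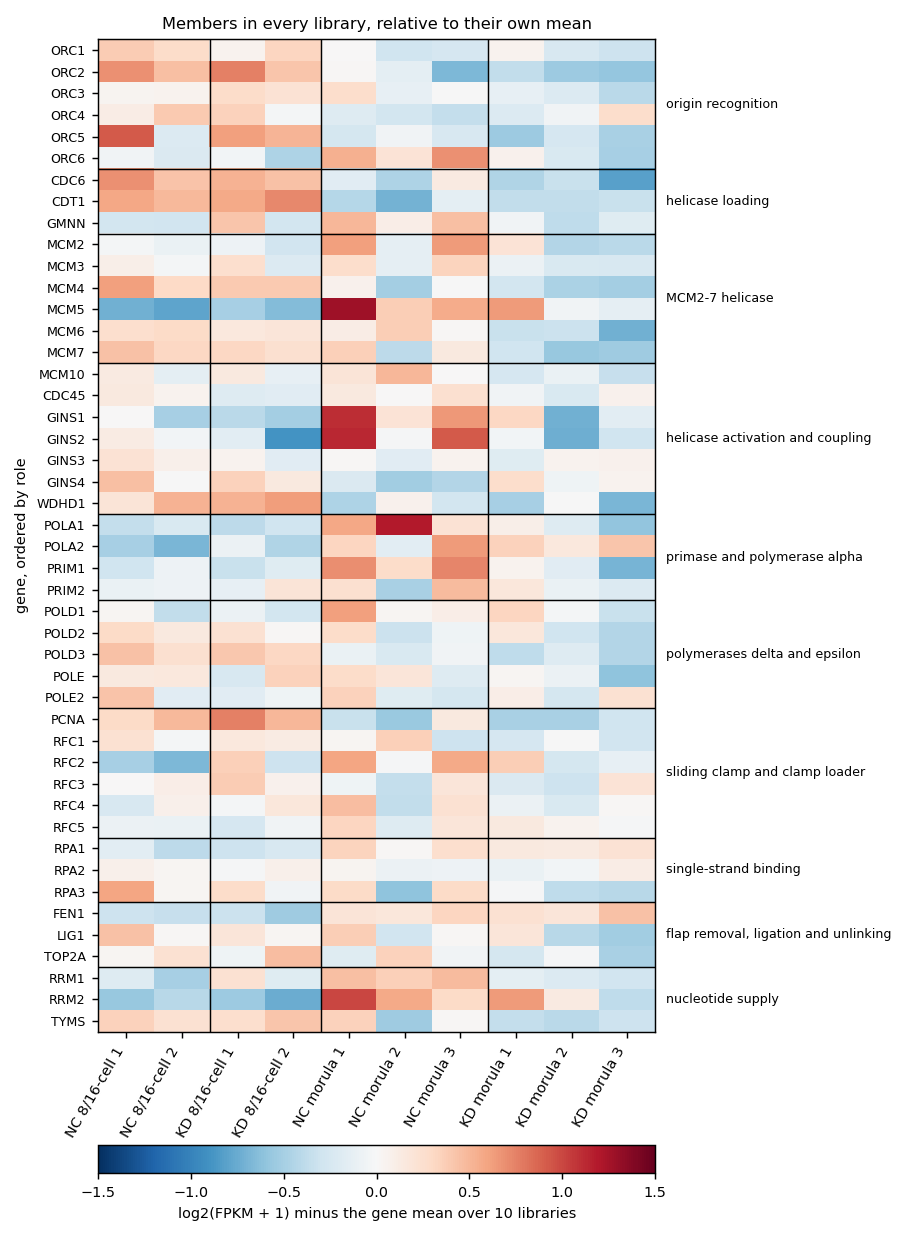
Each row is 1 of the 46 genes, ordered by role, and each column 1 of the 10 libraries; the colour is log2(FPKM + 1) minus the gene's mean over the 10 libraries. In the rows of ORC6, MCM6, GINS2, POLA1, PRIM1 and RRM1 each of the 3 KD morula columns is lower (toward blue) than all 3 NC morula columns.

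**Figure D2:**
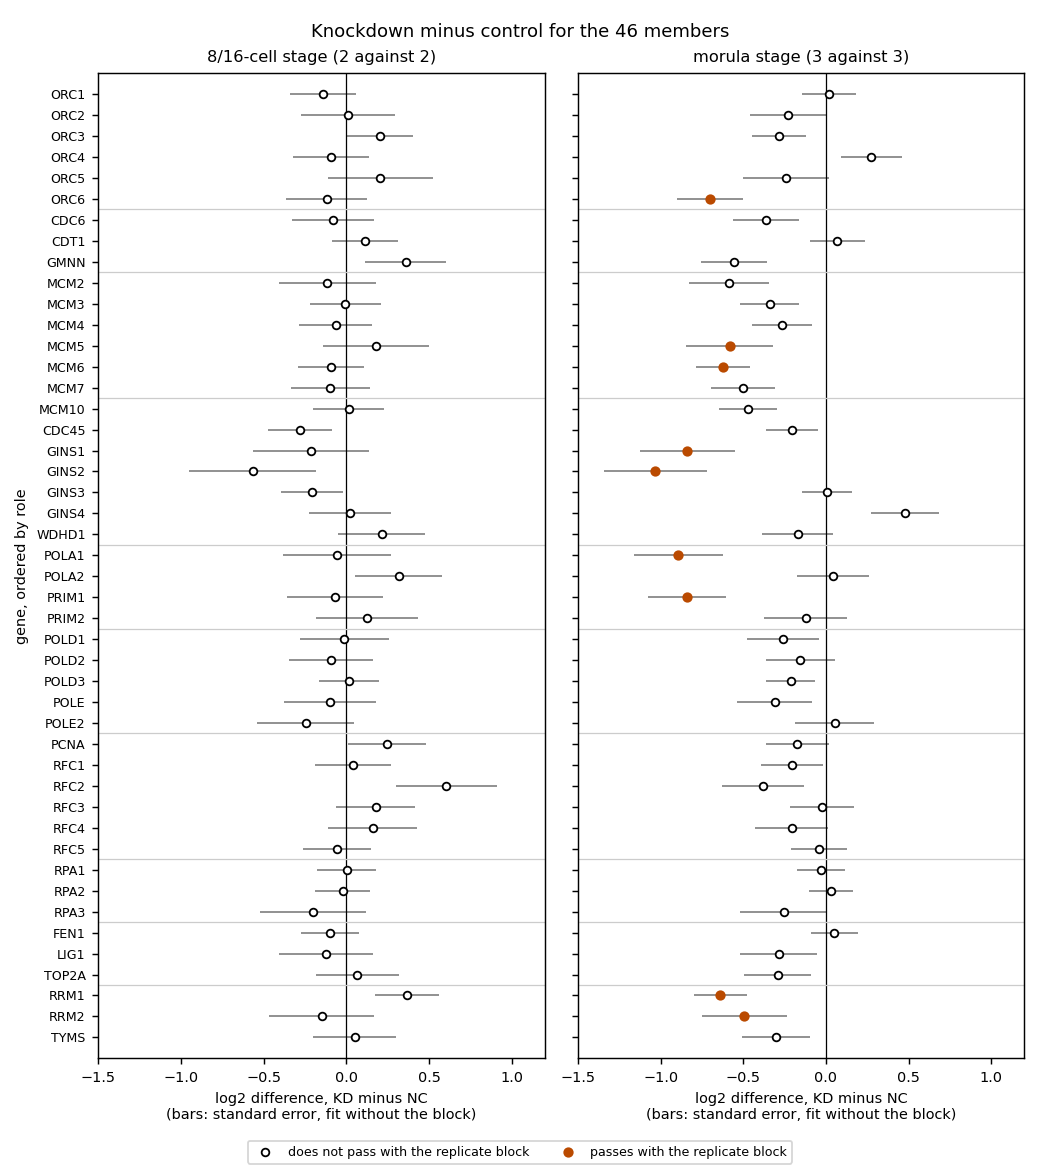
Points are KD minus NC log2 differences of the 46 genes at the 8/16-cell stage (left, 2 libraries against 2) and in morulae (right, 3 against 3), with bars of 1 standard error from the fit without the block; filled points passed at an adjusted p under 0.05 with the replicate block. In morulae 37 points lie left of 0 and 9 are filled, while at the 8/16-cell stage 25 lie left of 0 and none is filled.

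Among the origin recognition genes, whose products mark the sites where helicases are loaded, ORC6 differed most between the morula groups. ORC6 stood at 31.1, 24.6 and 34.8 FPKM in NC morulae and at 22.2, 17.9 and 14.8 in KD morulae. Every KD library was below every NC library, and the KD mean was 60.5% of the NC mean (log2 difference -0.70, SE 0.20, limma adjusted p 0.0951, and 0.0389 with the block). ORC6 at the 8/16-cell stage was at 20.5 and 18.2 FPKM in NC and 20.6 and 15.2 in KD, so that the groups overlapped. ORC1, the largest subunit and the member of this group with the highest level, stood at 36.1, 29.0 and 29.9 FPKM in NC morulae and 37.4, 30.3 and 28.9 in KD morulae, with overlap. The other origin recognition genes lay between -0.29 (ORC3) and 0.28 (ORC4) and none passed.

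CDC6 and CDT1 bring the helicase to the origin, and geminin (GMNN) binds CDT1 and blocks a further round of loading. GMNN was at 66.4, 50.2 and 64.2 FPKM in NC morulae and at 44.9, 35.7 and 40.9 in KD morulae. These groups did not overlap, and the KD mean was 67.2% of NC (log2 difference -0.56, SE 0.20, limma adjusted p 0.151, and 0.0508 with the block). CDT1 was at 15.9, 12.9 and 19.4 FPKM in NC morulae and 16.5, 16.5 and 17.0 in KD morulae, with overlap and a log2 difference of 0.07. CDC6, at 8.16, 6.49 and 10.3 FPKM in NC against 6.53, 7.18 and 4.87 in KD, overlapped too. The ratio of GMNN to CDT1, which was looked at after the values were seen, was 4.19, 3.91 and 3.31 in NC morulae and 2.72, 2.17 and 2.41 in KD morulae. That ratio lay between 1.06 and 1.92 in the 4 libraries of the 8/16-cell stage. With 3 libraries against 3, an exact two-sided permutation test of such a ratio cannot give a p below 0.1.

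GMNN at the 8/16-cell stage was at 38.3 and 37.9 FPKM in NC and at 62.7 and 38.4 in KD. The KD libraries were thus the higher ones there, by little in 1 of them, and the lower ones in morulae.

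All 6 genes of the MCM2 to MCM7 ring, the motor of the replicative helicase, lay below 0 in morulae, under each scaling of the libraries tried as well, with a median log2 difference of -0.54. MCM6 was at 64.2, 77.1 and 60.1 FPKM in NC morulae and at 47.1, 47.2 and 35.7 in KD morulae. The groups did not overlap, and KD was at 64.6% of NC (log2 difference -0.62, SE 0.16, limma adjusted p 0.0766, and 0.0198 with the block). MCM5 was at 48.3, 25.4 and 29.0 FPKM in NC and 30.7, 18.6 and 17.6 in KD, which overlapped across the groups while KD was lower in each numbered pair (log2 difference -0.58, SE 0.26, limma adjusted p 0.233, and 0.0310 with the block).

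MCM7, the ring gene with the highest level, was at 91.6, 53.9 and 78.7 FPKM in NC morulae and 57.6, 47.8 and 48.7 in KD morulae. NC library 2 lay within the range of the KD libraries, and the log2 difference was -0.50 (limma adjusted p 0.178, and 0.0537 with the block). Without number 2, MCM7 had a log2 difference of -0.67 and a blocked limma adjusted p of 0.0472. MCM2 (-0.59), MCM3 (-0.34) and MCM4 (-0.27) did not pass with or without the block. The 6 ring genes lay between -0.12 and 0.18 at the 8/16-cell stage.

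GINS joins CDC45 and the MCM ring in the active helicase, and its 4 genes had morula log2 differences from -1.03 to 0.48. GINS2 was at 36.6, 16.0 and 31.4 FPKM in NC morulae and at 15.7, 9.34 and 13.0 in KD morulae. The highest KD library was just under the lowest NC library, and KD was at 45.3% of NC (log2 difference -1.03, SE 0.31, limma adjusted p 0.106, and 0.00966 with the block). GINS1 was at 82.4, 43.9 and 59.8 FPKM in NC and at 47.3, 22.6 and 33.8 in KD. Those groups overlapped, with KD lower in each numbered pair (log2 difference -0.84, SE 0.29, limma adjusted p 0.139, and 0.00859 with the block).

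GINS3 was at 17.8, 15.5 and 18.2 FPKM in NC morulae and 15.3, 18.2 and 18.4 in KD morulae, a log2 difference of 0.01. GINS4, the gene of this complex with the lowest level, was at 2.30, 1.66 and 1.82 FPKM in NC and at 3.58, 2.66 and 2.98 in KD. It was the 1 member whose KD libraries all exceeded the NC libraries (log2 difference 0.48, SE 0.20, limma adjusted p 0.215, and 0.125 with the block), while 8.44% of all genes did so. The ratio of GINS2 to GINS4, also looked at after the values were seen, was 16.0, 9.60 and 17.2 in NC morulae and 4.39, 3.51 and 4.36 in KD morulae. In the 4 libraries of the 8/16-cell stage it lay between 2.54 and 5.60. MCM10, which helps activate the helicase, was at 29.4, 36.8 and 25.8 FPKM in NC and 21.3, 23.8 and 19.9 in KD morulae, without overlap (log2 difference -0.47, limma adjusted p 0.166, and 0.0540 with the block). CDC45 (-0.20) and WDHD1 (-0.17), which ties the helicase to polymerase alpha, did not pass.

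Primase and polymerase alpha make the short RNA and DNA primers from which every strand starts. The catalytic subunits POLA1 and PRIM1 were lower in KD morulae, and their partners POLA2 and PRIM2 had differences near 0. POLA1 was at 5.27, 8.56 and 3.90 FPKM in NC morulae and at 3.47, 2.67 and 1.80 in KD morulae. The groups did not overlap, and KD was at 44.8% of NC (log2 difference -0.89, SE 0.27, limma adjusted p 0.105, and 0.0324 with the block). PRIM1 was at 5.99, 4.22 and 6.17 FPKM in NC and 3.48, 2.84 and 1.65 in KD, again without overlap and at 48.7% of NC (log2 difference -0.84, SE 0.24, limma adjusted p 0.0917, and 0.0456 with the block).

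POLA2 was at 13.7, 9.56 and 17.4 FPKM in NC morulae and 14.0, 12.2 and 14.8 in KD morulae, a log2 difference of 0.04. PRIM2 was at 5.75, 3.07 and 6.96 FPKM in NC and 5.42, 4.31 and 3.97 in KD, a log2 difference of -0.12. The ratio of PRIM1 to PRIM2, looked at after the values were seen, was 1.04, 1.38 and 0.887 in NC morulae and 0.643, 0.659 and 0.416 in KD morulae, without overlap. The ratio of POLA1 to POLA2 overlapped, at 0.384, 0.896 and 0.224 in NC and 0.248, 0.219 and 0.122 in KD.

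**Figure D3:**
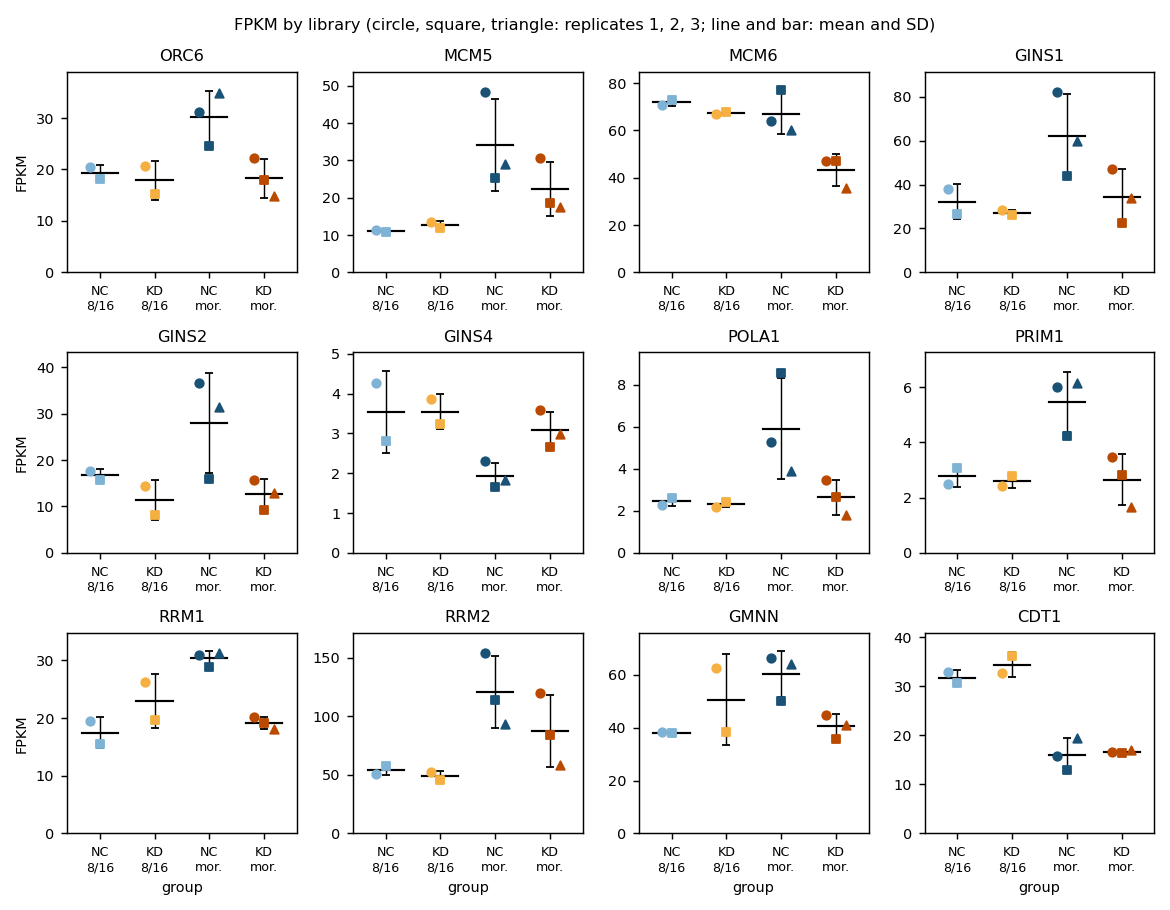
Each panel plots the FPKM of 1 gene in every library on an axis that starts at 0, with the 4 groups side by side, the marker shape giving the replicate number, and a line and bar for the group mean and SD. In morulae the KD points lie below all NC points for ORC6, GMNN, MCM6, GINS2, POLA1, PRIM1 and RRM1, lie above them for GINS4, and overlap them for the other genes shown.

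The 5 genes of the polymerases that extend the primers had a median log2 difference of -0.21 in morulae. POLD1, the catalytic subunit of polymerase delta, was at 71.7, 47.1 and 49.7 FPKM in NC morulae and 58.3, 45.3 and 36.6 in KD morulae, with overlap (log2 difference -0.26). POLD3 was at 12.8, 11.7 and 13.2 FPKM in NC and 10.4, 11.9 and 9.88 in KD, with 1 KD library inside the NC range (log2 difference -0.21). POLE, the catalytic subunit of polymerase epsilon, had a log2 difference of -0.31, and POLD2 and POLE2 had -0.16 and 0.05. None of these 5 genes passed.

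PCNA is the sliding clamp that holds polymerases on DNA, and RFC1 to RFC5 form the loader that opens it. All 6 lay below 0 in morulae, between -0.38 and -0.03, and none passed; RFC3 and RFC5 lay above 0 when libraries were scaled to equal sums, by quantiles or by median ratios. PCNA was at 55.7, 47.5 and 78.1 FPKM in NC morulae and 50.2, 49.9 and 57.2 in KD morulae, with overlap (log2 difference -0.17). RFC2 was at 15.1, 9.58 and 14.8 FPKM in NC and 12.9, 7.94 and 8.85 in KD, again with overlap (log2 difference -0.38, limma adjusted p 0.404).

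The single-strand binding genes RPA1 and RPA2 differed by -0.03 and 0.03 between the morula groups. RPA2 was at 47.6, 43.3 and 43.7 FPKM in NC and 43.0, 44.7 and 49.9 in KD. RPA3 was at 36.6, 19.3 and 36.4 FPKM in NC and 29.5, 22.7 and 22.1 in KD (log2 difference -0.26), with overlap.

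FEN1 trims the flaps of Okazaki fragments, LIG1 seals them and TOP2A unlinks the finished duplexes. FEN1 had a log2 difference of 0.05 in morulae. LIG1 was at 87.7, 55.0 and 68.1 FPKM in NC morulae and 76.5, 50.1 and 46.9 in KD morulae, with overlap (log2 difference -0.29). TOP2A was at 46.6, 67.8 and 51.2 FPKM in NC and 44.0, 52.5 and 37.6 in KD, with 1 KD library inside the NC range (log2 difference -0.29).

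The genes of nucleotide supply encode ribonucleotide reductase (RRM1 and RRM2), which makes deoxynucleotides, and thymidylate synthase (TYMS), which makes dTMP. RRM1 was at 30.9, 28.9 and 31.3 FPKM in NC morulae and at 20.2, 19.2 and 18.1 in KD morulae. The spread within each group was small beside the gap between them, and KD was at 63.1% of NC (log2 difference -0.64, SE 0.16, limma adjusted p 0.0724, and 0.0215 with the block). RRM2 was at 154, 114 and 93.8 FPKM in NC and at 120, 83.9 and 58.2 in KD, which overlapped across groups with KD lower in each numbered pair (log2 difference -0.49, SE 0.26, limma adjusted p 0.302, and 0.0489 with the block). TYMS was at 66.0, 35.4 and 52.5 FPKM in NC and 40.2, 38.8 and 41.3 in KD, with overlap (log2 difference -0.30). In all, 8 of 46 members were lower in KD without overlap of the morula libraries (ORC6, GMNN, MCM6, MCM10, GINS2, POLA1, PRIM1 and RRM1), against 15.3% of all genes. The share of the members is close to that of all genes, so this count is not a result about the members.

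At the 8/16-cell stage no replication gene passed with or without the block, while 0.0255% and 0.0170% of all genes did. Without the block none of the 46 had an unadjusted p under 0.05, against 4.37% of all genes. With it 2.17% of members were lower and 2.17% higher at that threshold, against 3.16% and 5.09% of all genes. The members split into 21 above and 25 below 0 (54.3% below, against 47.2% of all genes), with a median log2 difference of -0.02 (all genes 0.01), and every limma adjusted p was 1. The extremes were GINS2, at 17.7 and 15.7 FPKM in NC and 14.4 and 8.25 in KD (log2 difference -0.57, SE 0.38), and RFC2, at 6.61 and 5.72 in NC and 12.7 and 7.64 in KD (0.60, SE 0.31). Neither pair of groups overlapped, as held for 5 members that were lower in KD (13.9% of all genes) and 7 that were higher (19.3%). RRM1 was among the latter, at 19.4 and 15.6 FPKM in NC and 26.3 and 19.7 in KD. With 2 libraries a group, differences of this size could not be told from the spread between libraries.

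Whether the KD minus NC difference itself changed between the stages was tested as an interaction term in the same fit. No member passed with or without the block, while 0.272% and 0.0170% of all genes did. At an unadjusted p under 0.05, 6.52% of members had a lower difference in morulae, against 6.64% of all genes, and with the block 17.4%, against 11.9%. RRM1 had the lowest limma adjusted p of the members, 0.435, with a log2 difference 1.01 lower in morulae than at the 8/16-cell stage (SE 0.25, and adjusted p 0.0947 with the block). The larger differences of the morula stage are therefore not shown to be larger than those of the 8/16-cell stage.

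Between the 8/16-cell stage and the morula, replication genes of NC embryos went both ways. Both stages stand in 1 table, and whether they were normalized together is not given in the sources used here. Each of the 81 symbols with several lines stood on a square number of lines, as a join of 2 tables by symbol would leave. Of these symbols 0 had several distinct values in both stages, so the lines do not show which tables were joined. The stages may come from separate tables, which is not known, and stage differences carry that limit. In NC embryos 14 of 46 members passed (30.4%, against 30.8% of all genes), of which 9 rose (19.6%, against 12.6%) and 5 fell (10.9%, against 18.2%). MCM5 rose from 11.3 and 10.7 FPKM to 48.3, 25.4 and 29.0 (log2 difference 1.50, SE 0.29, limma adjusted p 0.00448). RRM2 rose from 51.1 and 57.3 FPKM to 154, 114 and 93.8 (1.12, SE 0.29, limma adjusted p 0.0161). RFC2 rose from 6.61 and 5.72 FPKM to 15.1, 9.58 and 14.8 (0.96, SE 0.28, limma adjusted p 0.0254). In each of these 3 genes every morula library lay above both earlier libraries. The others that rose were FEN1, POLA1, POLA2, PRIM1, RPA1 and RRM1, which include 3 of the 4 genes of primase and polymerase alpha.

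The genes that fell in NC embryos included both helicase loaders. CDT1 fell from 32.9 and 30.6 FPKM to 15.9, 12.9 and 19.4 (log2 difference -0.96, SE 0.18, limma adjusted p 0.00413). CDC6 fell from 15.6 and 12.9 FPKM to 8.16, 6.49 and 10.3 (-0.73, SE 0.22, limma adjusted p 0.0322). ORC2, at a low level throughout, fell from 3.49 and 2.84 FPKM to 1.83, 1.52 and 0.747 (-0.84, SE 0.26, limma adjusted p 0.0325). MCM4 and PCNA also passed as lower. So within the MCM ring MCM5 rose and MCM4 fell over the same interval.

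In KD embryos 11 members passed (23.9%, against 20.0% of all genes), of which 1 rose (FEN1, 2.17%, against 5.22%) and 10 fell (21.7%, against 14.8%). Those that fell were CDC6, CDT1, MCM4, MCM6, MCM7, ORC2, ORC5, PCNA, POLD3 and WDHD1. All 5 genes that fell in NC embryos also fell in KD embryos, and they make up 50.0% of the KD falls. Of the 9 that rose in NC, 1 (11.1%) passed as higher in KD. The same overlap was not counted over all genes, so these counts are not shown to be particular to the members. Of all genes 12.6% rose in NC and 5.22% in KD, while 18.2% and 14.8% fell. Fewer rises in KD than in NC were thus also seen over all genes. For POLA1 the stage difference was 0.95 in NC and 0.12 in KD, for PRIM1 0.76 and -0.01, for RFC2 0.96 and -0.02, and for RRM1 0.77 and -0.24. MCM5 had 1.50 and 0.73, RRM2 1.12 and 0.77, POLA2 0.85 and 0.58, RPA1 0.47 and 0.44, and FEN1 0.56 and 0.71. The difference between these stage differences is the interaction given above, which no member passed, and the NC morula libraries enter both it and the KD against NC comparison. The block lies within stage and was not used for differences between stages.

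**Figure D4:**
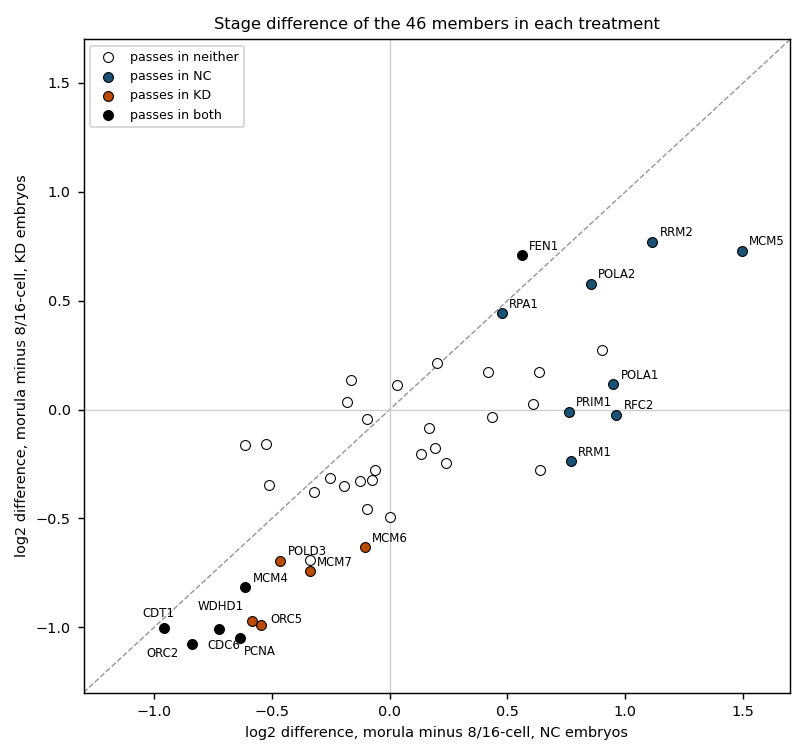
Each point is 1 of the 46 genes, with its morula minus 8/16-cell log2 difference in NC embryos on the horizontal axis and in KD embryos on the vertical axis; the dashed line marks equal differences and colours mark which test was passed without the block. FEN1 is the 1 gene that passed as higher in both, and POLA1, PRIM1, RFC2 and RRM1 lie near or below 0 on the vertical axis.

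The split of these stage calls moved with the scaling of the libraries and the libraries used. The shares of all genes under these settings are not given here, so the moves are not shown to be particular to the members. In NC embryos the counts of genes that rose and fell were 12 and 4 under quantile normalization, 12 and 3 under median ratio scaling, and 7 and 1 when libraries were scaled to equal sums. In KD embryos they were 5 and 7, 4 and 4, and 5 and 0 in the same order. Without NC 8/16-cell replicate 1 or 2, 3 NC calls were left in each case. The 8/16-cell library that remained was then assumed to vary like the other groups, as it was in KD. Without NC morula replicate 1 there were 7. Without NC morula replicate 3 there were 9. Of the KD calls 2 were left without KD 8/16-cell replicate 1 and 1 without replicate 2. There were 6 without KD morula replicate 1 and 7 without KD morula replicate 2.

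Other genes of the pathway were taken from lists of 68 genes in 6 groups, of which 66 were tested. In morulae 48 lay below 0 and 18 above, with a median log2 difference of -0.16. Without the block 1 passed (0.697% of all genes): NASP, a chaperone of histones H3 and H4 and of linker histones, was at 89.9, 98.8 and 77.5 FPKM in NC and 47.0, 38.9 and 34.9 in KD (log2 difference -1.12, SE 0.18, limma adjusted p 0.0374). The groups were far from overlapping. With the block 8 were lower and 2 higher (8.00% and 3.89% of all genes).

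All 7 further genes of nucleotide supply lay below 0 (6 under quantile normalization), with a median log2 difference of -0.54. DCK, a salvage kinase for deoxycytidine, was at 19.1, 14.9 and 15.7 FPKM in NC and 12.8, 7.51 and 3.30 in KD (-1.14, limma adjusted p 0.103, and 0.0244 with the block). Every KD library was below every NC library.

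All 8 genes of origin firing lay below 0 (7 under median ratio scaling and 6 under quantile normalization), with a median of -0.16. DONSON, a factor of helicase assembly, passed with the block, at 6.53, 3.55 and 5.58 FPKM in NC and 3.27, 2.07 and 2.64 in KD (-0.75, blocked limma adjusted p 0.0310). MCMBP, which binds MCM proteins, had a log2 difference of -0.36 (limma adjusted p 0.223, and 0.102 with the block). Of 18 fork and clamp accessory genes 14 lay below 0 (11 under quantile normalization) and 1 passed with the block, RNASEH2A, the catalytic subunit of ribonuclease H2 (-0.72, blocked limma adjusted p 0.0229). MCM8 did not pass (-0.64, limma adjusted p 0.210, and 0.0968 with the block).

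Of 13 tested S phase transcription factors 8 lay below 0 (7 under quantile normalization and under median ratio scaling). Their median log2 difference was -0.10 (all genes -0.08). With the block 3 passed, all of them lower. TFDP2, a partner of E2F factors, was at 30.4, 21.2 and 27.0 FPKM in NC morulae and 17.8, 10.3 and 12.6 in KD morulae (log2 difference -0.92, limma adjusted p 0.0672, and 0.00802 with the block). MYBL2, which drives late cell cycle genes, was at 97.6, 56.7 and 77.7 in NC and 54.4, 41.7 and 42.2 in KD (-0.71, limma adjusted p 0.106, and 0.0177 with the block). TFDP1, another such partner, had -0.74 (blocked limma adjusted p 0.0336). In all 3 genes every KD library was below every NC library. Of the 5 factors above 0, E2F1 and RBL2 had an unadjusted limma p under 0.05 but did not pass with the block. E2F1 had a log2 difference of 0.52 (blocked limma adjusted p 0.0536) and RBL2 of 0.59 (blocked limma adjusted p 0.0595).

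The 12 kinases, cyclins and checkpoint genes of S phase split evenly around 0, with a median of 0.01 (4 below 0 and 8 above under each other scaling). CDKN1A, the p21 inhibitor of cyclin-dependent kinases, was at 1.25, 4.44 and 7.14 FPKM in NC morulae and at 5.20, 11.9 and 19.5 in KD morulae. KD was higher in each numbered pair although the groups overlapped (log2 difference 1.35, SE 0.50, limma adjusted p 0.165, and 0.00799 with the block). CHEK1, the replication checkpoint kinase, had -0.42 (limma adjusted p 0.137, and 0.0656 with the block). Of 8 genes that restore chromatin behind the fork, NASP was lower and ASF1B, another chaperone of H3 and H4, was higher with the block, at 26.0, 22.8 and 42.9 FPKM in NC and 38.1, 55.7 and 69.0 in KD (0.82, blocked limma adjusted p 0.0172).

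Some other quantities also differed between the morula groups, while others overlapped. The ribosomal RNA gene RN18S1 was at 2704.2, 2982.9 and 8610.8 FPKM in NC morulae and at 9053.4, 8552.6 and 11581.1 in KD morulae. With its log2 level as a covariate, 36 members lay below 0, with a median of -0.24, and 0 passed. Of 15 markers of cumulus and granulosa cells 9 were tested. Their summed level was 66.4 to 83.4 FPKM in NC morulae and 60.5 to 110 in KD morulae. SERPINE2 made up a large part of these sums, with 45.0 to 75.8 FPKM across NC morulae but 23.4 to 45.9 across KD morulae. Averaged as log2(FPKM + 1), the 9 markers had 1.80 (KD) against 1.47 (NC) in numbered pair 1. Pair 2 had 2.46 against 2.03, and pair 3 had 2.73 against 2.13. KD thus stood higher within each pair, although the groups overlapped. By log2 difference 6 of the 9 lay above 0 and 3 below. With the block 3 of the 9 were higher (VIM at 0.346, 5.40 and 5.42 FPKM in NC and 3.44, 11.0 and 43.3 in KD, CYP11A1 and COL1A1) and 1 was lower (SERPINE2). Among the markers of this list that were not tested, FSHR and LHCGR were at 0 in all NC morulae and at 0 to 0.138 FPKM in KD morulae. FOXL2 was at 0.426, 0.0792 and 0.351 FPKM in NC morulae and higher, at 0.592, 0.841 and 1.03, in KD morulae. CYP19A1 went the other way, at 1.415, 1.436 and 0.689 FPKM in NC and 0.260, 0.143 and 0.0202 in KD. PTX3 and HAS2 lay between 0 and 0.09655 FPKM in the morula libraries. At the 8/16-cell stage the 9 tested markers averaged 2.97 and 2.91 in NC and 3.40 and 3.51 in KD as log2(FPKM + 1), without overlap. By log2 difference 6 of the 9 lay above 0 there and 3 below, and none passed with or without the block. Summed oocyte markers (8 of 10 tested) were at 6.02 to 11.9 FPKM in NC morulae and 6.66 to 12.2 in KD morulae. Of 5 sperm and testis markers 1 was tested (TNP1, 5.11 to 7.42 FPKM in NC and 5.16 to 10.2 in KD), and of 6 blood and immune markers 2 were tested (summed 109 to 160 and 136 to 244 FPKM). HBA made up most of these sums, at 106 to 157 FPKM in NC morulae and 133 to 239 in KD morulae, with overlap. CD68, the other tested marker, overlapped too. Of the blood and immune markers not tested, HBB was at 0 in all morula libraries. PTPRC, CD3E and LYZ were at 0.398 FPKM or less there. Of the 8 embryo markers, CDX2 was at 19.8% of NC in KD morulae, GATA3 at 20.8%, KRT8 at 36.4%, POU5F1 at 67.5%, KRT18 at 75.8%, SOX2 at 91.0%, TFAP2C at 100% and NANOG at 257%. The morula groups did not overlap for CDX2, GATA3 and NANOG and overlapped for the other embryo markers. GATA3 was at 7.99, 2.24 and 2.48 FPKM in NC, and KRT8 at 36.8, 16.2 and 3.95. None of the 8 passed without the block (lowest limma adjusted p 0.0559). With it NANOG was higher, and CDX2, GATA3 and POU5F1 were lower. The part of all these quantities in the differences of the replication genes was not tested.

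Averaged over the 46 members, log2(FPKM + 1) was 4.61, 4.28 and 4.49 in NC morulae and 4.30, 4.13 and 4.08 in KD morulae. NC library 2 thus lay just below the highest KD library. KD minus NC in the numbered pairs was -0.30, -0.15 and -0.40 for the members. Relative to the mean of all genes tested in the same library it was -0.18, -0.15 and -0.30. At the 8/16-cell stage the members averaged 4.45 and 4.32 in NC and 4.45 and 4.34 in KD.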

How the data were processed

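The deposited table gives FPKM per gene and library, which the authors had already normalized for length and depth; the submitters' processing notes name Trimmomatic, HISAT2, featureCounts and Cufflinks and the build ARS-UCD1.2 (bosTau9), without versions or roles. Strand is not stated, so overlapping antisense reads cannot be told apart. The table has 39911 lines for 28781 symbols. The 81 symbols on several lines were left out, none of them a member. Samples were grouped by title. All 46 members match a RefSeq symbol. Sequences and promoters were not used here.

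Values were taken as log2(FPKM + 1), so that folds of low genes are understated. Genes whose mean FPKM reached 1 or more were tested with limma 3.58.1 (R 4.3.3, with a mean-dependent prior), using 4 group means over all 10 libraries and Benjamini-Hochberg adjustment at 0.05, with 6 residual degrees of freedom (3 with the block). The code was tested on simulated data. Fold values compare means of FPKM where given as a percentage of NC and means of log2 values elsewhere.

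The morula replicate numbers were taken to pair the libraries because all 3 same-numbered correlations exceeded 0.1. At the 8/16-cell stage the same-numbered correlation was 0.0558, so those numbers are not taken to pair libraries. The block was nevertheless applied within both stages, and in morulae only (4 residual degrees of freedom) as an alternative.

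The members and gene lists were chosen with earlier results of these data known. Values in each library are given for the member of each role with the highest mean level and the one with the smallest p in morulae, for members that pass, for PCNA, CDT1, GMNN, RRM2 and TYMS, and for the 3 largest rises and falls between stages in NC. Of each further pathway list, genes that pass are named, filled up to 2 by smallest p in morulae. The values of 1 such gene are not reported here. ORC2 to ORC5, MCM2 to MCM4, MCM10, GINS3, GINS4, PRIM2, E2F1, RBL2 and the marker genes were named after their values were seen, as were the ratios.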

Additional observations from a re-analysis of the deposited data

How the results depend on the processing

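No member passed KD against NC at the 8/16-cell stage, or the interaction, under any alternative, and none passed in morulae except with the replicate block (9, also with the block in morulae only, and 2 without number 2). The block pairs libraries within a stage, so it gives no valid error for differences between stages and was not used there. The morula median lay between -0.36 and -0.14 over 25 alternatives, with 33 to 42 members below 0. Scaling to equal sums moved the 8/16-cell median to -0.39 with 45 members below 0, and the all-gene median there to -0.32. The RN18S1 covariate, the equal sums without MIR2887, the block without a number and the block in morulae only were added after the data were seen. Member counts under these alternatives, also those for the stage differences, stand without the share of all genes. Their moves are therefore not shown to be particular to the members.

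The NC stage count of 14 became 7 without a filter, 8 under equal sums, 5 with only the groups compared and 8 with RN18S1, and 3 to 15 when 1 library was left out. The KD count of 11 became 5 under equal sums, 6 with RN18S1 and 7 under equal sums without MIR2887, and 1 to 13 when 1 library was left out.

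Over all 46 members, the KD minus NC difference changed sign under at least 1 alternative for 37 at the 8/16-cell stage (20 of them under equal sums) and for 17 in morulae (9 of them with RN18S1). Leaving out 1 library changed the sign of 8 to 11 and of 2 to 6 members, in the same order. Values follow for the members named by rule only. Under equal sums at the 8/16-cell stage they were CDT1 (-0.28), GMNN (-0.036), MCM5 (-0.19), ORC2 (-0.29), PCNA (-0.15), POLA2 (-0.039), POLD3 (-0.36), RRM1 (-0.015), TOP2A (-0.33) and TYMS (-0.34). Without MIR2887 the same scaling gave ORC2 -0.078, POLD3 -0.091, TOP2A -0.045 and TYMS -0.061. Quantile normalization gave ORC2 -0.014, POLD3 -0.016 and TYMS -0.00102, median ratio scaling gave ORC2 -0.00909 and POLD3 -0.00878, and RN18S1 gave ORC2 -0.011. In morulae the covariate gave CDT1 -0.081, ORC2 0.12, POLA2 -0.17 and POLD1 0.020. The block without number 2 gave CDT1 -0.064, ORC1 -0.000887 and POLA2 -0.098, and without number 3 RPA2 -0.048. When 1 library was left out, the 8/16-cell differences ranged, for GINS1, from -0.46 to 0.036, POLD1 -0.21 to 0.18, RPA3 -0.48 to 0.081, LIG1 -0.34 to 0.089, TOP2A -0.19 to 0.33, CDC6 -0.21 to 0.047, PRIM1 -0.18 to 0.042, POLD3 -0.081 to 0.11, TYMS -0.033 to 0.13, POLA1 -0.12 to 0.0079, ORC2 -0.16 to 0.18, RPA2 -0.072 to 0.025 and ORC6 -0.33 to 0.091. The morula differences ranged, for ORC1, from -0.090 to 0.11, POLA2 -0.17 to 0.23, CDT1 -0.072 to 0.21, PCNA -0.33 to 0.024 and RPA2 -0.031 to 0.074. The cause was not tested.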
